A study of Mus musculus with 8 samples.

Results

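Klf1 and Hbb-b1 were followed as a pair, an erythroid transcription factor and a globin gene of the kind it activates, in RT-PCR of lineage-negative mouse bone marrow cells. The members were the assays whose gene name in the raw table is Klf1 or Hbb-b1, which make up 2 of 12 genes and 54 of 324 wells. Each gene was read in 3 wells in each of 9 preparations, 3 per genotype. The study asked how the loss of 1 copy of Id2, which encodes an inhibitor of basic helix-loop-helix transcription factors, alters bone marrow that lacks Gfi-1, a transcriptional repressor of blood cell development. Wild-type preparations are Gfi1+/+ controls, and the others are labelled Gfi-1-/- or Gfi-1-/-;Id2+/-. The labels for the whole series give a C57/Bl6 background for the mice and no treatment. The labels do not state their age, the design of the null alleles or whether each preparation came from 1 mouse. Cells positive for CD11b, Gr1, B220, CD8, CD4, Ter119 or IL-7R had been depleted, which takes away mature myeloid, lymphoid and late red cells. The series also holds 8 whole-marrow arrays of the mutant genotypes, on which Klf1 and Hbb-b1 were not analysed here.

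Klf1 is a zinc-finger factor that is largely restricted to the erythroid lineage. It binds CACCC-type elements and activates the adult beta-globin genes together with Gata1, and mice that lack it die before birth from beta-globin deficiency. Hbb-b1 encodes an adult beta-globin chain of haemoglobin, and its transcript accumulates as erythroid precursors mature. The C57BL/6 strain carries the adult beta-globin genes Hbb-bs and Hbb-bt, which are close copies. The deposited methods do not state the probe of the Hbb-b1 assay, so which of the copies it reads is uncertain.

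RefSeq promoters (GRCm38.p6) matched 1 of the 2 members by symbol, Klf1. The promoters of Hbb-bs and Hbb-bt are printed beside it, because a factor and the globin promoters it is known to act on are the pair measured. Each stretch is the 250 bases before the annotated start, on the gene's own strand, at chr8:84901732-84901981 (plus strand) for Klf1, chr7:103827929-103828178 (minus strand) for Hbb-bs and chr7:103813924-103814173 (minus strand) for Hbb-bt. Capitals mark matches to CCNCNCCC (an element of the kind Klf1 binds), AGATAA (an element of the GATA factors) or TATAAA (found near many starts), searched on both strands, of which none overlapped another.
Klf1: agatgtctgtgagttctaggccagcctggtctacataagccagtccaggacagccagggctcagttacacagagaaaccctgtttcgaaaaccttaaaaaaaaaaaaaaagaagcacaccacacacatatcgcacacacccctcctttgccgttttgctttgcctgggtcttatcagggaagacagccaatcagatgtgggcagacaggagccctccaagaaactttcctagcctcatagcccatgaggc
Hbb-bs: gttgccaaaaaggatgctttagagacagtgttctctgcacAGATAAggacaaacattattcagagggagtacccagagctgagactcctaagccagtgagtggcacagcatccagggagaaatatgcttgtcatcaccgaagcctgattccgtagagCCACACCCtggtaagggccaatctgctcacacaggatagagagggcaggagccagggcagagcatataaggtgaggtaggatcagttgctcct
Hbb-bt: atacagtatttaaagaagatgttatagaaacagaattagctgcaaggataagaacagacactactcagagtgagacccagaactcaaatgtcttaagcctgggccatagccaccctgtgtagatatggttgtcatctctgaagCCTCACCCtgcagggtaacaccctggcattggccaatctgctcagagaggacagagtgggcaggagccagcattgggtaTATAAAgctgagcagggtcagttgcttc
In Hbb-bs the match CCACACCC ends 86 bases before the start and AGATAA ends 205 bases before it. In Hbb-bt the match CCTCACCC ends 100 bases before the start and TATAAA ends 23 bases before it. The Klf1 window held none of the 3 strings, and other forms of these elements were not searched, so their absence is not shown. In the same window of 32851 promoters, 45.9% hold CCNCNCCC, 9.99% hold AGATAA and 12.4% hold TATAAA, so the first is a frequent string.

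Values are threshold cycles (Ct), of which a higher one means less transcript. A level is the mean Gapdh Ct minus the mean Ct of the gene in the same preparation, so 1 unit is a doubling if amplification is perfect. Wells of 1 preparation had a pooled SD of 0.084 cycles for Klf1, 0.180 for Hbb-b1 and 0.118 for Gapdh, the reference. The error that wells alone give a level was 0.084 for Klf1 and 0.124 for Hbb-b1, and 1 Gapdh well of wild-type preparation 1 was undetermined. Id2 stood at -8.71 ± 0.31 (SD, n = 3) in wild type, -7.71 ± 0.63 in Gfi-1-/- and -9.28 ± 0.47 in Gfi-1-/-;Id2+/-, and no Gfi-1-/-;Id2+/- value reached a Gfi-1-/- value. The Gfi1 level was -7.49 ± 0.16, -7.02 ± 0.11 and -7.10 ± 0.38 in the same order, not lower in preparations labelled null. The labels do not say whether the Gfi1 probe falls inside the deletion, so it checks nothing, and genotypes below are those of the labels.

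The gene names of the deposited tables disagree, and this bears on every value that follows. In the authors' deposited table of normalized values, only 1 of 90 values lies within 0.1 of the raw Ct difference to Gapdh for the gene of the same name. All 90 lie within 0.1 of a raw difference to Hbb-b1 once names are reordered, and 1 of the 10 columns, Ccne1, then keeps its name. Its column headed Klf1 holds the raw Gata2 wells, and its column headed Hbb-b1 holds the raw Gata1 wells. Its column headed Tfrc holds the raw Gapdh wells, and its reference, titled Gapdh, matches the raw Hbb-b1 wells. The Id2 label bears on this for 1 gene. The raw Id2 level in Gfi-1-/-;Id2+/- minus Gfi-1-/- was -1.57 (SE 0.46) with no overlap (exact permutation p = 0.1, adjusted p = 0.55), while the column headed Id2 in the authors' deposited table, with its sign turned, gives a difference of means of 0.53. The raw Id2 wells thus lie in the direction of the label and that column does not; no label checks the names Klf1 and Hbb-b1 in this way. The names of the raw table are used, because the deposited methods name those Ct values as the source of the fold changes. Values under the other names close the account.

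Klf1 differed little between genotype means, and 1 Gfi-1-/- preparation stood apart. Its level was -5.25, -5.63 and -5.83 in wild-type preparations 1 to 3. In Gfi-1-/- preparations it was -4.77, -7.27 and -4.63, and in Gfi-1-/-;Id2+/- preparations -6.20, -5.73 and -6.03. Of the 9 values, Gfi-1-/- preparations hold the 2 highest and the lowest, and all 3 genotypes overlap. The means were -5.57 ± 0.30 in wild type, -5.56 ± 1.48 in Gfi-1-/- and -5.99 ± 0.24 in Gfi-1-/-;Id2+/- (SD, n = 3 each).

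**Figure D1:**
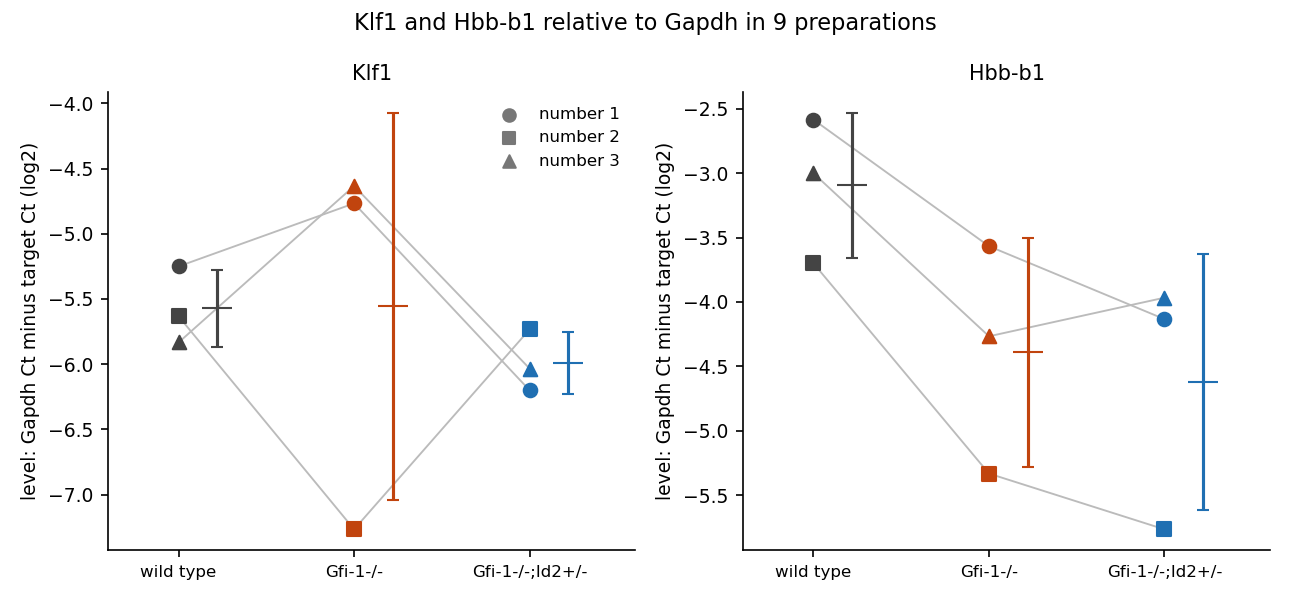
Level of Klf1 (left) and of Hbb-b1 (right), in log2 units relative to Gapdh, in 3 genotypes. Each point is 1 preparation, its shape gives the replicate number and grey lines join equal numbers; bars are the mean ± SD of 3 preparations. Klf1 in Gfi-1-/- runs from -7.27 to -4.63, while the Hbb-b1 lines from wild type all go down.

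Klf1 was 0.017 log2 units higher in Gfi-1-/- than in wild type (SE 0.87, exact two-sided permutation p = 1). In Gfi-1-/-;Id2+/- its difference to wild type was -0.42 (SE 0.22, exact permutation p = 0.2, adjusted p = 0.367 over the 11 target genes). Against Gfi-1-/- the difference of Gfi-1-/-;Id2+/- was -0.43 (SE 0.87, exact permutation p = 0.7). An exact permutation of 3 against 3 preparations cannot go below 0.1. Over all 3 genotypes the exact permutation F test gave p = 0.811 (adjusted 0.892) for Klf1. These p-values are the share of assignments of preparations to genotypes that gave a difference or F at least as large. The spread between preparations may in part be technical. The 6 Gfi1-null preparations together against wild type gave -0.20 (SE 0.43, exact permutation p = 0.810).

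The Klf1 comparison turned on Gfi-1-/- preparation 2. Without it, the difference of Gfi-1-/- to wild type was 0.87 in place of 0.017, and that of Gfi-1-/-;Id2+/- to Gfi-1-/- was -1.29. The exact permutation test over 3 genotypes then gave p = 0.0143, or 0.0524 after adjustment over 11 genes. In that preparation the Klf1 Ct was 24.07, against 20.20 and 20.00 in the other Gfi-1-/- preparations, and the Gapdh Ct was 16.80 against 15.43 and 15.37. Both transcripts were thus read later there than in the other Gfi-1-/- preparations, Klf1 by more cycles than Gapdh. Klf1 was not alone in this. Relative to Gapdh, every target but Ccne1 and Gata2 was lowest there among Gfi-1-/- preparations. The size varied, from Epor at -8.40 against -6.30 and -6.20 to Gfi1 at -7.10 against -7.07 and -6.90.

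Hbb-b1, the globin, had lower means in both Gfi1-null genotypes than in wild type. Its level was -2.58, -3.70 and -3.00 in wild-type preparations 1 to 3, with a mean of -3.09 ± 0.56 (SD, n = 3). It was -3.57, -5.33 and -4.27 in Gfi-1-/- (mean -4.39 ± 0.89) and -4.13, -5.77 and -3.97 in Gfi-1-/-;Id2+/- (mean -4.62 ± 0.99). Every Gfi-1-/-;Id2+/- value lay below every wild-type value, and among Gfi-1-/- values that of preparation 1 lay above wild-type preparation 2. The order of the means was wild type, Gfi-1-/-, Gfi-1-/-;Id2+/-, and the last 2 differed by less than their spread.

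The difference of Gfi-1-/-;Id2+/- to wild type was -1.53 (SE 0.66), a ratio of 0.347, with an exact permutation p = 0.1, the smallest possible, and an adjusted p = 0.367. Hbb-b1 and Cdk1, the mitotic kinase, were the genes whose groups did not overlap in this comparison, both lower, which is 18.2% of the 11 genes. For Gfi-1-/- against wild type it was -1.29 (SE 0.61), a ratio of 0.408 (exact permutation p = 0.2, adjusted p = 0.367), and neither member was among the 4 genes (36.4%) whose groups did not overlap, Ccne1, Cdk1, Gfi1 and Id2. Together the 6 null preparations gave -1.41 (SE 0.48), a ratio of 0.376 (exact permutation p = 0.0595, adjusted p = 0.306), with values that overlap wild type, as for all but 1 gene, Cdk1 (9.09% did not overlap). The exact permutation F test over 3 genotypes gave p = 0.164 (adjusted 0.326) for Hbb-b1. In each of these comparisons 0% of the 11 genes passed an adjusted p of 0.05 by the exact tests. With 3 against 3 preparations none could pass. With 6 against 3 the smallest exact permutation p is 0.0119, so a single gene cannot pass the adjustment. At an unadjusted p under 0.05 the comparisons of 2 groups held 0 genes, and the test over 3 genotypes held 2 that are not members, Id2 and Gfi1b.

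Between the null genotypes, which differ by label in 1 Id2 copy, neither Hbb-b1 nor Klf1 differed by more than the spread between preparations. Hbb-b1 in Gfi-1-/-;Id2+/- minus Gfi-1-/- was -0.23 (SE 0.77, exact permutation p = 0.7), and its sign turned to 0.34 without Gfi-1-/-;Id2+/- preparation 2. The SE is wide enough that a change of either sign cannot be told from none. In RNA of a mixed cell preparation, fewer erythroid cells and less globin RNA per cell cannot be told apart.

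Equal replicate numbers were compared as well, since deviations of same-numbered preparations correlated between wild type and each null genotype, in part no more than those of different numbers. The Hbb-b1 level in Gfi-1-/- minus that in wild type was -0.98, -1.63 and -1.27 in numbers 1 to 3. In Gfi-1-/-;Id2+/- the differences to wild type were -1.55, -2.07 and -0.97. All of these were below 0, and both sets use the same 3 wild-type preparations. Cdk1 was also below 0 in each number, at -0.45, -1.97 and -0.40 for Gfi-1-/- and -0.25, -1.13 and -0.57 for Gfi-1-/-;Id2+/-. Klf1 gave 0.48, -1.63 and 1.20 for Gfi-1-/- and -0.95, -0.10 and -0.20 for Gfi-1-/-;Id2+/-. With the number as a block, limma gave Hbb-b1 an adjusted p = 0.0274 for Gfi-1-/- against wild type, 0.00504 for Gfi-1-/-;Id2+/- and 0.00233 for both together. In each of these comparisons Hbb-b1 was the only one of the 11 genes called (9.09%), and over 3 genotypes Hbb-b1 and Id2 were called (18.2%). That fit gave all 11 genes 1 shared variance and all 3 genotypes 1 effect per number, although the null genotypes did not deviate together by number. Limma with the block was also fitted on wild type and 1 null genotype at a time, an alternative added after seeing the data. Hbb-b1 then had a limma adjusted p = 0.0433 for Gfi-1-/- and 0.000533 for Gfi-1-/-;Id2+/-, again as the only gene of 11 (9.09%). For Gfi-1-/-;Id2+/- this fit too gave all 11 genes 1 shared variance, with an SE of 0.303 for each gene. A shared variance pools the 11 genes as if they were replicates. Each gene alone left 2 residual degrees of freedom in this fit and 4 in that over 3 genotypes. All 11 levels hold the same Gapdh Ct per preparation, so they are not independent, and these limma p-values may be too small. Permuting only within numbers, also added later, gave both Hbb-b1 and Cdk1 an exact permutation p = 0.037 for both null genotypes, the smallest possible (adjusted p = 0.204). With that floor a single gene cannot pass the adjustment over 11. In limma the call on Hbb-b1 was made with the block and not without it, and Klf1 was called in none of these fits.

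The mean of the reference differed between genotypes, and without the reference the Hbb-b1 difference was not seen. Gapdh Ct was 17.42 ± 1.35 in wild type, 15.87 ± 0.81 in Gfi-1-/- and 15.82 ± 1.03 in Gfi-1-/-;Id2+/- (SD, n = 3 each). The null preparations were read earlier by 1.57 cycles on the means, a difference of -1.57 (SE 0.85, exact permutation p = 0.0595). Hbb-b1 Ct without a reference was 19.93, 19.80 and 21.80 in wild type. It was 19.00, 22.13 and 19.63 in Gfi-1-/-, and 20.97, 20.53 and 19.83 in Gfi-1-/-;Id2+/-. The null minus wild-type difference in Hbb-b1 Ct was -0.16 cycles (SE 0.79, exact permutation p = 0.857), so no fall of Hbb-b1 was seen on that scale.

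**Figure D2:**
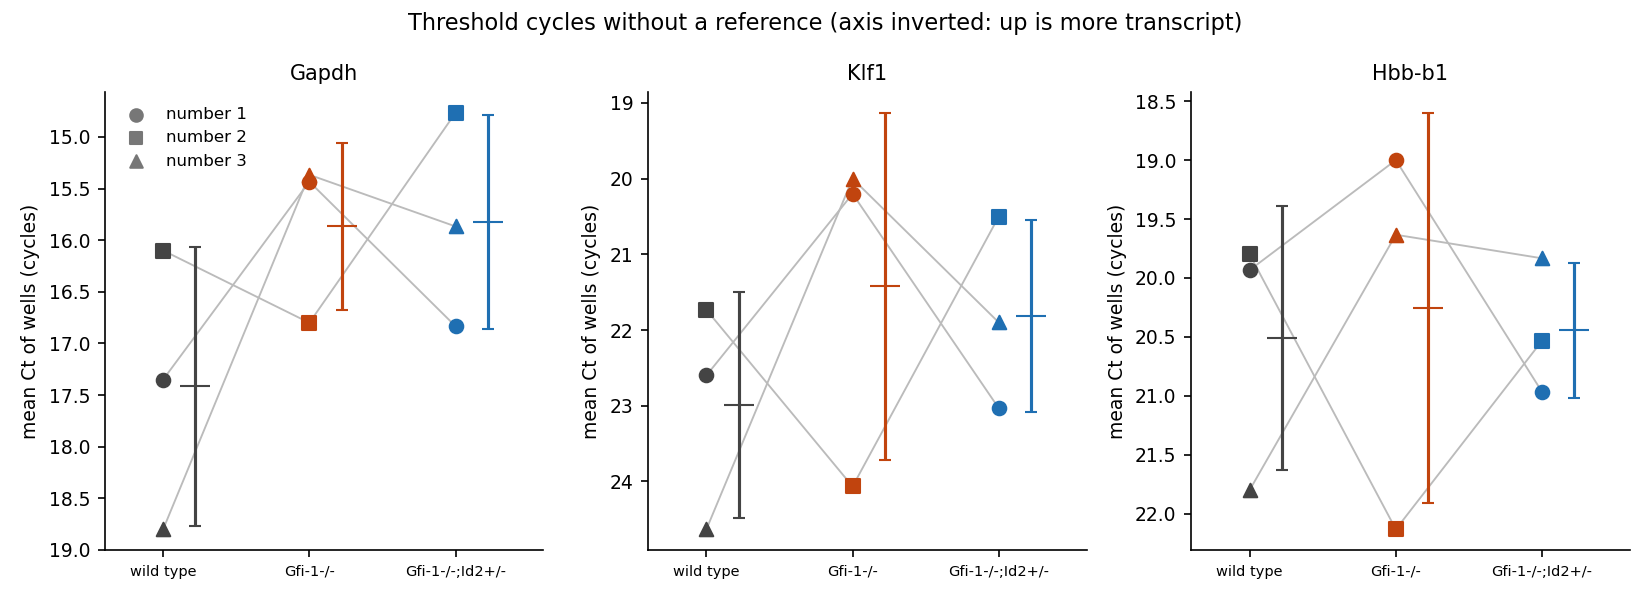
Mean Ct of the wells, in cycles, for Gapdh, Klf1 and Hbb-b1 by genotype, with the axis inverted so that up is more transcript. Points are preparations, shapes are replicate numbers joined by grey lines, bars are mean ± SD of 3. Gapdh sits lowest in wild type, with a mean of 17.42, and Hbb-b1 means lie between 20.26 and 20.51.

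Klf1 Ct was 22.60, 21.73 and 24.63 in wild type, 20.20, 24.07 and 20.00 in Gfi-1-/-, and 23.03, 20.50 and 21.90 in Gfi-1-/-;Id2+/-. Its null minus wild-type difference was -1.37 cycles (SE 1.10, exact permutation p = 0.274), close to that of Gapdh. With the mean Ct of all 12 genes in place of Gapdh, the Hbb-b1 difference of null to wild type was -1.29 (exact permutation p = 0.0238, adjusted p = 0.214). The means of Hbb-b1 in null preparations thus lay lower relative to Gapdh and to the average of the panel, without passing the adjusted exact test on either scale. At this size a single gene cannot pass that adjustment, so the test does not decide the question. The deposited methods state an equal RNA input, and whether the input or Gapdh itself differed was not tested.

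Hbb-b1 was next set against Klf1 in the same preparation, a Ct difference in which Gapdh cancels. The 2 assays may amplify with different efficiency, so the value is read between preparations and not as a number of transcripts. Hbb-b1 relative to Klf1 was 2.67, 1.93 and 2.83 in wild type (mean 2.48 ± 0.48). It was 1.20, 1.93 and 0.37 in Gfi-1-/- (1.17 ± 0.78) and 2.07, -0.033 and 2.07 in Gfi-1-/-;Id2+/- (1.37 ± 1.21, SD, n = 3 each). Wild-type preparations 1 and 3 held the highest values of all 9, and wild-type preparation 2 was as low as Gfi-1-/- preparation 2.

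**Figure D3:**
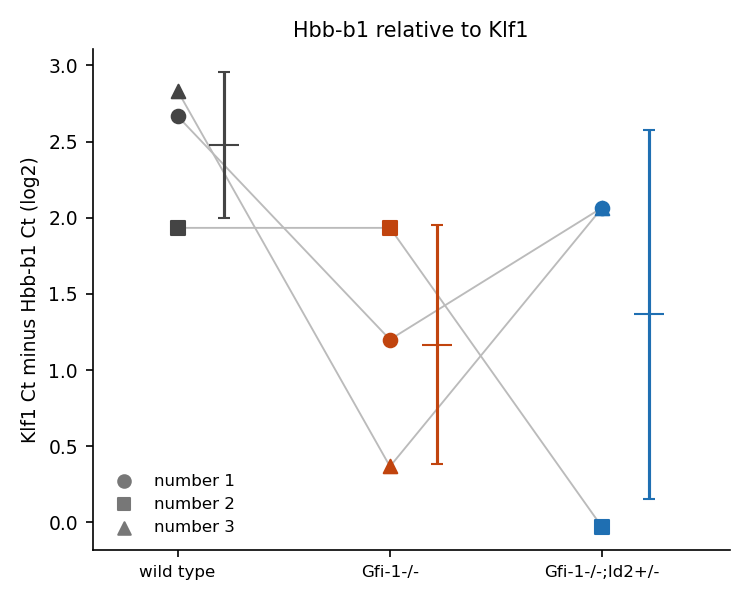
Hbb-b1 relative to Klf1, as Klf1 Ct minus Hbb-b1 Ct in log2 units, by genotype. Points are preparations, shapes are replicate numbers joined by grey lines, bars are mean ± SD of 3. Numbers 1 and 3 coincide at 2.07 in Gfi-1-/-;Id2+/-. The value of -0.033 belongs to Gfi-1-/-;Id2+/- preparation 2, and wild type spans 1.93 to 2.83.

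On this scale Gfi-1-/- minus wild type was -1.31 (SE 0.53, exact permutation p = 0.2) and Gfi-1-/-;Id2+/- minus wild type was -1.11 (SE 0.75, exact permutation p = 0.3). Without Gfi-1-/-;Id2+/- preparation 2 the second difference was -0.41. Both null genotypes together gave -1.21 (SE 0.47, exact permutation p = 0.107, adjusted p = 0.589 over 11 targets). The F test over 3 genotypes gave an exact permutation p = 0.25, and the 2 null genotypes differed by 0.20 (SE 0.83, exact permutation p = 0.8). The low values of Hbb-b1 relative to Klf1 went with different levels. In Gfi-1-/- preparations 1 and 3 the Klf1 level was above every wild-type value. The Hbb-b1 level was below every wild-type value in each null preparation but Gfi-1-/- preparation 1. That includes Gfi-1-/- preparation 2, with a relative value of 1.93, and Gfi-1-/-;Id2+/- preparations 1 and 3, with 2.07. A low Hbb-b1 level was thus not particular to the preparations with the lowest relative values.

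Whether Klf1 and Hbb-b1 moved together was read over the 9 preparations. Relative to Gapdh, Pearson's r was 0.44 (exact permutation p = 0.236) and Spearman's rho was 0.32 (exact permutation p = 0.410). Without Gfi-1-/- preparations 2 and 3, the 2 farthest from the median of Klf1, r was 0.32 (exact permutation p = 0.470) and rho was 0.54 (exact permutation p = 0.236). Centred on genotype r was 0.48, and centred on replicate number it was 0.18. Leaving out Gfi-1-/- preparation 2 alone gave 0.15. A joint movement of the levels was thus not shown at this size.

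**Figure D4:**
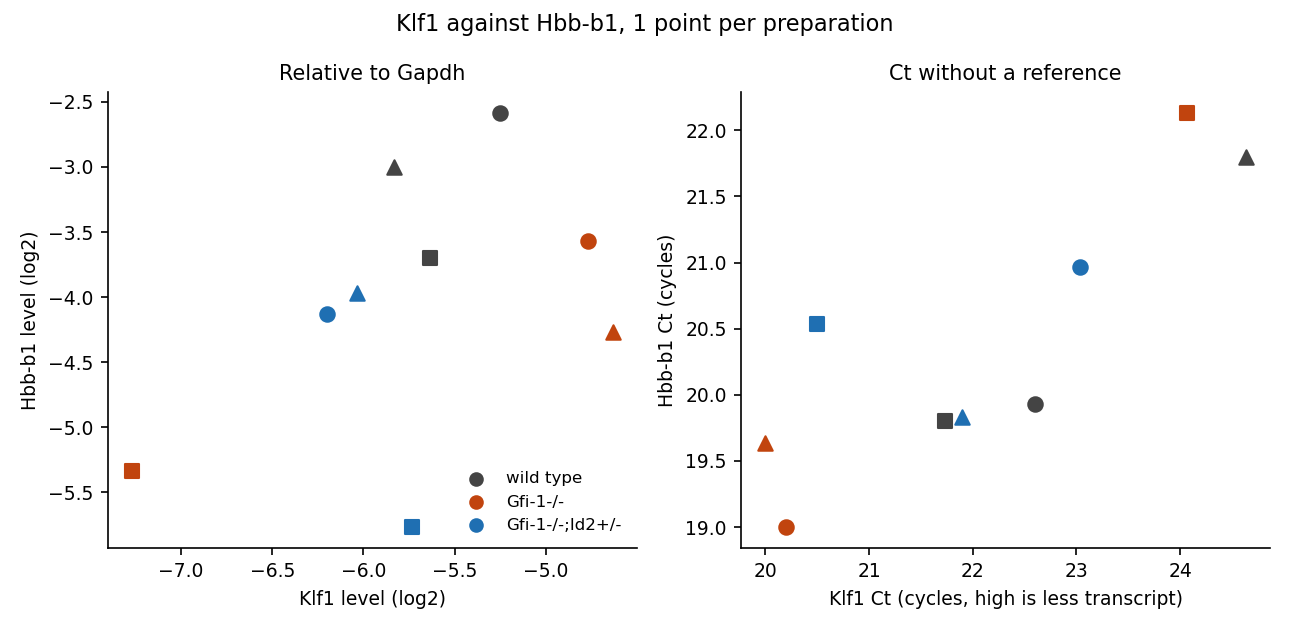
Hbb-b1 against Klf1 in the 9 preparations, as log2 levels relative to Gapdh (left) and as Ct without a reference (right). Colour is genotype and shape is replicate number. The left cloud has r = 0.44 and the right one r = 0.84.

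The Ct of Klf1 and Hbb-b1 without a reference rose and fell together more closely, with r = 0.84 (exact permutation p = 0.00601, adjusted 0.012 over 4 relations) and rho = 0.87 (exact permutation p = 0.00451). The 4 were Klf1 with Hbb-b1 as levels and as Ct, and the Ct of each with Gapdh Ct. P-values of the other relations were not adjusted. Without the 2 preparations farthest from the median of Klf1 Ct, r was 0.57 (exact permutation p = 0.190) and rho was 0.75 (exact permutation p = 0.0663). The relation thus rests in part on those samples. Ct values share the amount of cDNA in a preparation. Klf1 Ct correlated with Gapdh Ct at r = 0.89 (exact permutation p = 0.000739, adjusted 0.00295), and Hbb-b1 Ct with Gapdh Ct at r = 0.61 (exact permutation p = 0.0809, adjusted 0.108). Relative to the mean Ct of 12 genes, r between Klf1 and Hbb-b1 was 0.076 (exact permutation p = 0.851). That mean includes Klf1 and Hbb-b1 themselves, which can lower this r.

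Among the 10 other targets, Hbb-b1 ranked seventh in likeness to Klf1. The genes most like Klf1 over the 9 preparations were Epor, the erythropoietin receptor gene, with r = 0.97, and Gata1, the master erythroid GATA factor, with r = 0.88. Centred on genotype the same genes led, at 0.99 and 0.93. Hbb-b1 was most like Cdk1 (r = 0.84), followed, apart from Klf1, by Tfrc, the transferrin receptor gene (r = 0.40). Centred on genotype, Cdk1 (0.81) and Id2 (0.68) came first for Hbb-b1. All of these levels share 1 Gapdh Ct per preparation, and no test is attached to the ranks.

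**Figure D5:**
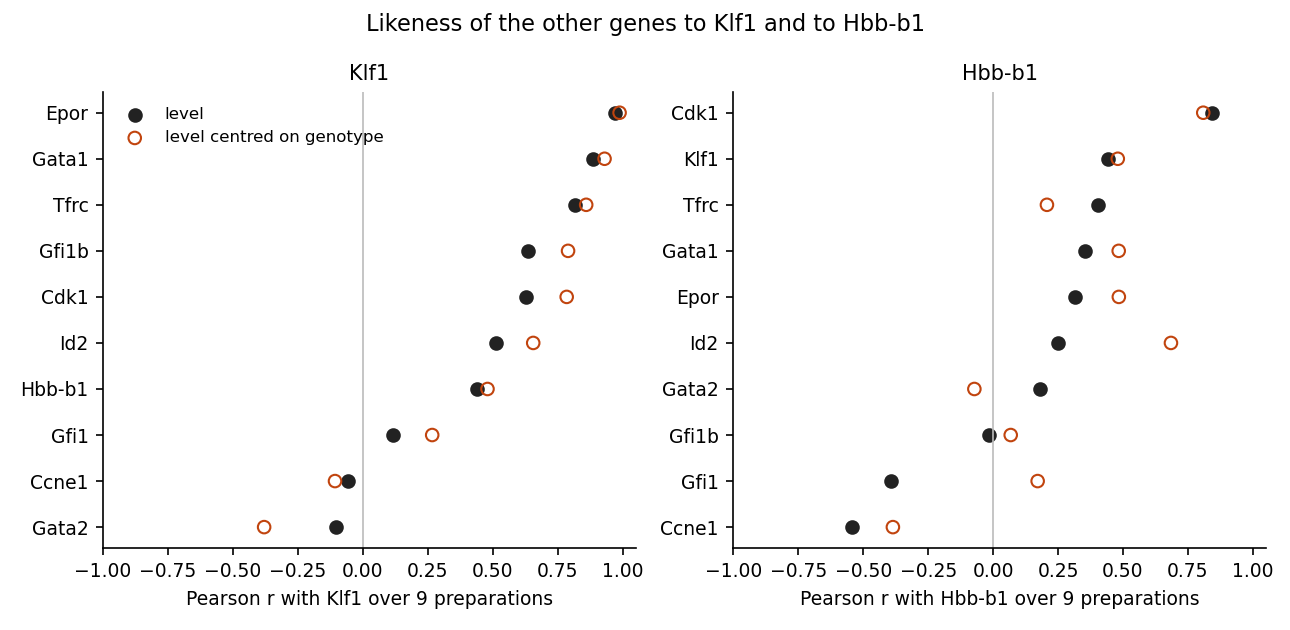
Pearson r of each other target gene with Klf1 (left) and with Hbb-b1 (right) over 9 preparations, for levels relative to Gapdh (filled) and levels centred on genotype (open). Epor heads the Klf1 panel at 0.97 and Cdk1 the Hbb-b1 panel at 0.84.

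The other erythroid genes of the panel were Gata1, Gfi1b, a repressor related to Gfi1, Epor and Tfrc. In Gfi-1-/- against wild type their median difference was 0.22, with 3 higher and 1 lower, beside a median of 0.21 over all 11 genes. In Gfi-1-/-;Id2+/- it was -0.21 with all 4 lower, beside -0.27 over all genes. Over both null genotypes it was 0.036, against -1.41 for Hbb-b1 and -0.20 for Klf1. None of the 4 passed the adjusted exact permutation test in any comparison, which with 3 against 3 preparations no gene could.

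Under the names of the authors' deposited normalized table, with its sign turned, the directions for Hbb-b1 are the opposite. There Hbb-b1 was 1.42 higher in null preparations than in wild type (exact permutation p = 0.0238, adjusted p = 0.0744), and Klf1 was 1.30 higher. Klf1 and Hbb-b1 under those names had r = 0.91 over the 9 preparations (exact permutation p = 0.000948, not adjusted). Both columns are differences to the same reference wells, so this r holds that shared Ct as well. The reference of that table, titled Gapdh, matches the wells named Hbb-b1 in the raw table. Differences under its names hence hold the Hbb-b1 difference of the raw names with its sign turned. Under its names the wells read here as Hbb-b1 would be Gapdh, and those read here as Gapdh would be Tfrc. The lower Hbb-b1 level would then be one of Gapdh relative to Tfrc and not of a globin. Which names are right was not tested for these genes.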

How the data were processed

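The authors deposited raw threshold cycles (Ct) of 12 genes, 3 wells per gene and preparation, reverse transcribed from 500 ng of RNA and read over 45 cycles, per the file headers and the accompanying protocol sheet. They also deposited normalized log2 values, titled as Ct relative to Gapdh, of which 11 columns were compared and 1 column was not used. The submitters' processing notes list Partek 6.6, for the arrays. Wild-type preparations have no sample of their own in the labels and were placed by their row names and the protocol sheet.

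Wells were averaged without the undetermined well, and genotypes were compared by exact two-sided permutation, with Benjamini-Hochberg adjustment over 11 targets. Alternatives used limma 3.58.1 in R 4.3.3, other references, medians of wells, a linear scale, and leaving out each preparation. Replicate numbers come from the row names. Same-numbered deviations over 11 levels correlated at 0.634, 0.539 and 0.214 between wild type and Gfi-1-/- and at 0.291, 0.596 and 0.173 between wild type and Gfi-1-/-;Id2+/-, so by the rule that each exceeds 0.1 numbers were taken to pair these. Different numbers reached 0.255 (wild type 3 with Gfi-1-/- 1) and 0.444 and 0.391 (wild type 3 with Gfi-1-/-;Id2+/- 1 and 1 with 3), above some same-numbered values, so the pairing is weakly borne out. Between the null genotypes the same-numbered values were 0.566, 0.114 and -0.505. These were not taken as paired, although the block over 3 genotypes treats them so. The deviations come from the same levels that were then tested, those of Klf1 and Hbb-b1 included, so the choice of the block was not independent of them.

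The members and lists were chosen with earlier results of these data known. Named were Klf1 and Hbb-b1, Id2, Gfi1 and Gapdh as checks, Gata1, Gfi1b, Epor and Tfrc by counts, and the 2 targets most like each member. Cdk1, Ccne1, Gfi1b and Id2 beside the counts and Ccne1 beside the names were named after their values were seen. So were Epor, Gfi1, Ccne1 and Gata2 beside Gfi-1-/- preparation 2.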

Additional observations from a re-analysis of the deposited data

How the results depend on the processing

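With 3 preparations per genotype, exact tests of 2 genotypes cannot pass 0.05. Without a reference, Ct with its sign turned gave Hbb-b1 0.26 for Gfi-1-/- and 0.067 for Gfi-1-/-;Id2+/- against wild type and 0.16 for both, Klf1 1.57 for Gfi-1-/-, 1.18 for Gfi-1-/-;Id2+/- and 1.37 for both, and r = 0.84 between the genes. With the mean of 12 genes as reference, Klf1 in Gfi-1-/- minus wild type was -0.039 and Hbb-b1 in Gfi-1-/-;Id2+/- minus Gfi-1-/- was 0.12. On a linear scale Klf1 in both null genotypes minus wild type was 0.036. Under the authors' names, sign turned, Hbb-b1 minus wild type was 1.53 for Gfi-1-/-, 1.30 for Gfi-1-/-;Id2+/- and 1.42 for both, Klf1 was 1.43 for Gfi-1-/-, 1.17 for Gfi-1-/-;Id2+/- and 1.30 for both, Hbb-b1 relative to Klf1 was 0.10, 0.13 and 0.12, and r was 0.91. The cause of these turns was not tested, apart from the reordered names.

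With the replicate number as a block, limma kept Hbb-b1 at -1.29, -1.53 and -1.41 against wild type with lower p-values, also when only the 2 genotypes compared were fitted. Its test over 3 genotypes gave p = 0.000242 with the block and 0.0411 without it, beside an exact permutation p = 0.164. Without the block, limma gave adjusted p-values of 0.176, 0.215, 0.155 and 0.226 for the same 4 comparisons. The block changed no call on Klf1 or on Hbb-b1 relative to Klf1. Among the other genes, Id2 over 3 genotypes moved from an adjusted p of 0.0631 to 0.00243 in limma. Centred on the number, r was 0.18.

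Leaving out 1 preparation at a time, Hbb-b1 ran from -1.71 to -0.82 for Gfi-1-/- against wild type, from -1.86 to -0.96 for Gfi-1-/-;Id2+/-, from -1.71 to -1.16 for both, and from -0.71 to 0.34 between the null genotypes. Klf1 ran from -0.44 to 0.87, from -0.55 to -0.26, from -0.43 to 0.099 and from -1.29 to 0.028 in the same order. Hbb-b1 relative to Klf1 ran from -1.69 to -0.91, from -1.46 to -0.41, from -1.48 to -0.95 and from -0.20 to 0.90. Exact permutation p over 3 genotypes ran from 0.114 to 0.329 for Hbb-b1, from 0.0143 to 0.961 for Klf1 and from 0.0714 to 0.443 for the relative value, and r from 0.15 to 0.56. The planned array comparison of Klf1 and Hbb-b1 was not run, because no table used here pairs probe sets with genes.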
